A study of Mus musculus with 25 samples.

Results

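The protamines and transition proteins were followed in mouse sperm RNA through 7 genes chosen by symbol, namely Prm1, Prm2, Prm3, Tnp1, Tnp2, Hils1 and H1fnt. All 7 were found among the 24358 genes of the deposited table, and all 7 had a valid estimate in each of the 5 conditions. Sperm that swam out of incised cauda epididymides of males aged 14 weeks went into all-RNA-seq, in which RNA is fragmented and its ends are repaired so that molecules of any end type enter the library. C57.CTL.F1 and FVB.CTL.F1, called the C57BL/6J and FVB/N controls below, are first-generation males of C57BL/6J and FVB/N dams that received corn oil, the vehicle, from embryonic day 9 to 19. C57.D300.F1 and FVB.D300.F1 are first-generation males whose dams received 300 mg/kg/day of DEHP, bis(2-ethylhexyl)phthalate, over the same days, and are called the exposed C57BL/6J and FVB/N males. C57.D300.F2, called the F2 males below, are C57BL/6J males of the second generation, fathered by exposed F1 males with unexposed females, and no F2 control was analysed here. Both strains are inbred, and each condition holds 5 libraries.

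The deposited table gives 1 value per gene and condition, an estimated fragment count that Cuffdiff derived from the 5 libraries together, with a variance from its own model. An SD taken from that variance is called the model SD below. It is not a measured spread between libraries, and since no value of a single library was used here, no comparison carries a p-value. Differences are given as log2 ratios with 1 added to each count. A gene is called changed at 2 log2 units where either condition of the comparison had at least 10 counts. Per the labels, 10 libraries are re-analysed, those of C57.D300.F1 and its control. The other 15 carry no such label and are called newly made below, and the labels do not say whether they were made together. A comparison between the re-analysed and the newly made set cannot be told apart from the set itself. Values are on the deposited scale, and a scale set by other late spermatid genes is named as such.

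In round spermatids, histones still package the genome, and in elongating spermatids they are removed, replaced for a short time by transition proteins and then by protamines, small arginine-rich proteins that condense the DNA of the sperm head. Messenger RNAs of these proteins are made in round spermatids, stored in a repressed state and translated days later. Mature sperm are transcriptionally silent, so that the RNA measured here is what remains from spermatogenesis or adheres to the sample.

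The 4 genes of chromosome 16 form the protamine cluster, with Tnp2, Prm3, Prm2 and Prm1 on the minus strand within 8.951 kb, chr16:10787936-10796886 of GRCm38 in GENCODE M21. Prm1 lies at chr16:10796326-10796886 and Prm2 at chr16:10791380-10792105. Prm3 lies at chr16:10790505-10790914 and Tnp2 at chr16:10787936-10788660. The other 3 genes are unlinked. Tnp1 lies at chr1:73015074-73015909 on the minus strand, Hils1 at chr11:94967593-94968456 on the plus strand and H1fnt, which RefSeq names H1f7, at chr15:98255986-98257293 on the minus strand. Prm1, Prm2, Tnp1 and Tnp2 have 2 exons each, and Prm3, Hils1 and H1fnt have 1. Counts of a gene here are over all of its exons, coding and untranslated.

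The promoters are shown as a description of the 7 genes, which lie on 4 chromosomes. Their part in the RNA levels was not tested. CREM, an activator of round spermatids, binds DNA elements with the letters TGACGTCA or close variants. In the RefSeq promoter windows, which run from 250 bases before to 50 after a gene's start on GRCm38.p6, all 7 genes were matched. On either strand, TGACGTCA was in 0 of the 7 windows and in 1.79% of all 32851 windows. TGACTTCA was in the window of Prm1 and in 1.52% of all windows, and TGACCTCA was in those of Prm3 and Hils1 and in 2.17% of all. The relaxed form TGANNTCA, chosen after the sequences had been seen and overlapping all of these motifs, was in 4 of the 7 windows and in 14.1% of all. A match is a description of letters and not of a bound site. The 4 matches are given with 30 bases of the gene's strand each, the capitals marking TGANNTCA, at chr1:73015975-73016004, chr11:94967575-94967604, chr16:10790956-10790985 and chr16:10796869-10796898 in this order.
Tnp1: gcaaaggttagTGATGTCAcaagagagctg
Hils1: aatggccccctTGAGGTCActgcagagata
Prm3: tggagcctttgTGAGGTCAgtgccacaccc
Prm1: ctggtcctcttTGACTTCAtaattcctagg
The match lay 94 to 87 bases upstream of the RefSeq start in Tnp1, 60 to 53 bases upstream in Prm3 and 64 to 57 bases upstream in Prm1, where GENCODE also lists a longer transcript that starts within these letters. In Hils1 it ran from 7 bases upstream to the start base.

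Prm2 and Tnp2 had no match to that form, and the 100 bases before their first annotated start are given on the minus strand, at chr16:10792106-10792205 and chr16:10788661-10788760, because Prm2 was the most abundant of the 7 RNAs and Tnp2 is its partner in the cluster. The capitals in Prm2 mark TTTATA, the reverse complement of TATAAA, 31 to 26 bases upstream of the start. TATAAA was in 1 of the 7 windows and in 13.6% of all.
Prm2: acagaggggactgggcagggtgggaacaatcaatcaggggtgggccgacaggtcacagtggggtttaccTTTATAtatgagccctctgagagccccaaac
Tnp2: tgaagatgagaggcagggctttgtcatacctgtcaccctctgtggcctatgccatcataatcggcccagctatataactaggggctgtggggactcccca

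Prm2, the protamine made as a precursor that is cleaved after it binds DNA, had 20903 counts in the C57BL/6J controls, 12610.3 in the exposed C57BL/6J males, 6651 in the F2 males, 1584 in the FVB/N controls and 2019 in the exposed FVB/N males. It was the 36th most abundant of all genes in the C57BL/6J controls and the 711th in the FVB/N controls. Prm1, the protamine found across mammals, had 1038, 1162, 707, 185 and 328 counts in the same order. Prm2 was thus highest in the C57BL/6J controls and Prm1 in the exposed C57BL/6J males, and both were lowest in the FVB/N controls. Prm3, an acidic protein of the spermatid cytoplasm despite its name, was the least abundant, with 66.6, 70.1, 27.9, 10.2 and 12.2 counts.

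The transition proteins displayed the same order of conditions as Prm2. Tnp1 had 1145 counts in the C57BL/6J controls, 1025 in the exposed C57BL/6J males, 551 in the F2 males, 227 in the FVB/N controls and 387 in the exposed FVB/N males. Tnp2, which binds zinc, had 844, 791, 480.3, 172 and 244 counts. Hils1 and H1fnt encode linker histone-like proteins of the spermatid nucleus, and H1fnt sits at the apical pole of that nucleus. Hils1 had 121, 138, 78.8, 22.3 and 30.2 counts, and H1fnt had 276, 224, 96.0, 28.4 and 37.0 counts. None of the 35 values was at or below 3 counts, taken as the limit of detection for counting error.

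**Figure D1:**
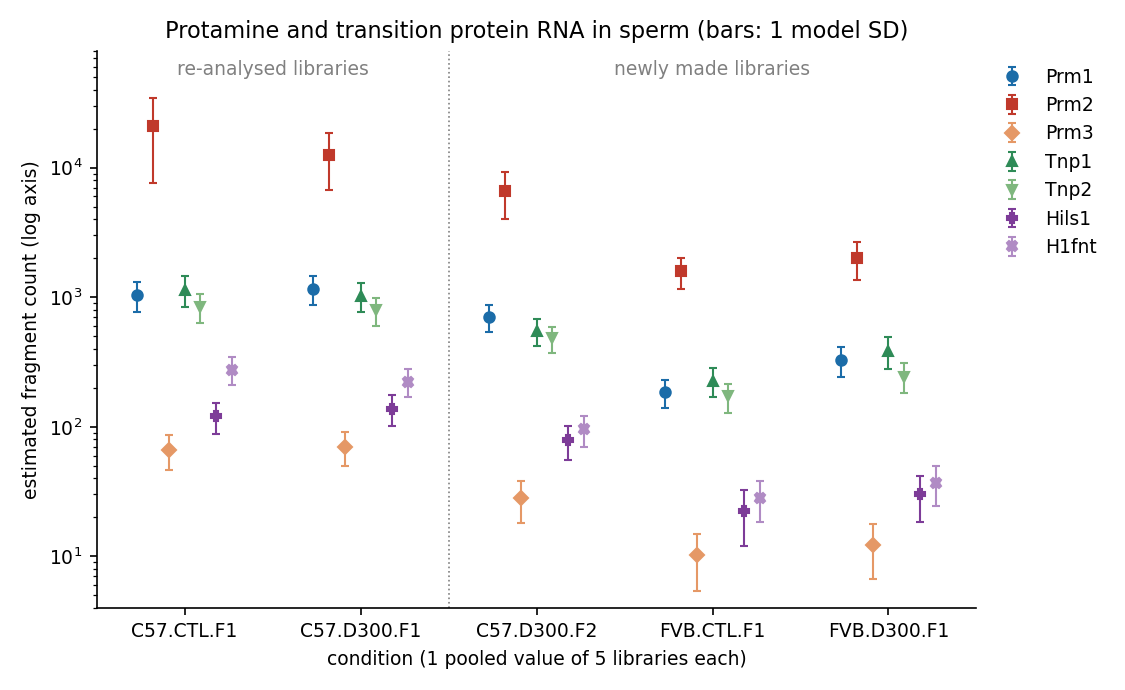
Estimated fragment count of each of the 7 genes (log axis) in the 5 conditions, with bars of 1 model SD. All 7 genes are lowest in FVB.CTL.F1, next lowest in FVB.D300.F1 and then in C57.D300.F2, from 20903 counts of Prm2 in C57.CTL.F1 down to 10.2 counts of Prm3 in FVB.CTL.F1.

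In each of the 7 genes the FVB/N controls were lowest, followed by the exposed FVB/N males and the F2 males. The highest level was in the exposed C57BL/6J males for Prm1, Prm3 and Hils1, and in the C57BL/6J controls for Prm2, Tnp1, Tnp2 and H1fnt. The C57BL/6J controls and the exposed C57BL/6J males differed by less than 1 model SD in all 7 genes, and the FVB/N controls and the exposed FVB/N males differed by more than 1 in Prm1 and Tnp1 only. The F2 males were below the next higher condition by more than 1 model SD in every gene but Prm2, and above the exposed FVB/N males by more than 1 in every gene but Tnp1. Of all genes, 18.2% were lower by more than 1 in the F2 males than in the C57BL/6J controls. Against the exposed C57BL/6J males it was 15.7%. Such a share is not given here for the exposed FVB/N males against the F2 males, so that count cannot be set against it.

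The model SD of most of these values was close to that of other genes, since it was 0.233 to 0.299 of the count for Prm1, Tnp1 and Tnp2 in all conditions and for Prm3, Hils1 and H1fnt in the C57BL/6J controls and the exposed C57BL/6J males. The median over all genes was 0.275 to 0.280 of the count. Prm2 stood out, with 0.638 in the C57BL/6J controls, 0.470 in the exposed C57BL/6J males, 0.395 in the F2 males, 0.272 in the FVB/N controls and 0.333 in the exposed FVB/N males. The Prm2 values of the C57BL/6J conditions were therefore the least certain relative to their size among all values over 100 counts of the 7 genes.

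Together the 7 genes had 24394 counts in the C57BL/6J controls, 16019.8 in the exposed C57BL/6J males, 8592 in the F2 males, 2229 in the FVB/N controls and 3058 in the exposed FVB/N males. This was 0.284%, 0.207%, 0.124%, 0.0295% and 0.0369% of all counts. Prm2 made up 85.7% of the sum in the C57BL/6J controls and 66.0% in the exposed FVB/N males, so that the sum largely followed 1 gene. Without Prm2, an alternative added after the values were seen, the sums were 3491, 3409, 1941, 645 and 1039 counts. The difference between the C57BL/6J controls and the exposed C57BL/6J males was thus mostly that of Prm2, while the lower level in FVB/N remained.

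Levels of different genes can be compared only per length of the spliced transcript, which was 469 bases in Prm1, 621 in Prm2, 437 in Tnp1 and 554 in Tnp2. In the C57BL/6J controls, Prm2 had 33660.1 counts per kb, ahead of Tnp1 with 2621, Prm1 with 2214 and Tnp2 with 1523. H1fnt, Prm3 and Hils1 followed with 211, 162 and 140 counts per kb. In the FVB/N controls the leading order was the same, with 2550.4 counts per kb for Prm2, 520 for Tnp1, 394 for Prm1 and 311 for Tnp2. Tnp1 and Prm1 did not differ beyond the model SD per length in either condition, with ratios of 1.18 ± 0.440 and 1.32 ± 0.462.

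Prenatal DEHP in C57BL/6J is the comparison within the re-analysed libraries. Between the exposed C57BL/6J males and their controls, none of the 7 genes was called lower or higher, against 0.256% of 16825 genes tested that were called lower. The median log2 ratio of the 7 genes was -0.09, and that of all genes tested was -0.01. Prm2 had the lowest value, -0.73, from 20903 to 12610.3 counts. That difference of 8293 counts is smaller than its model SD of 14598.5. H1fnt was at -0.31, Tnp1 at -0.16 and Tnp2 at -0.09, whereas Prm3 was at 0.07, Prm1 at 0.16 and Hils1 at 0.19, with Tnp1 and Tnp2 turning to 0.09 and 0.15 on the late spermatid scale and Tnp2 to 0.02 at equal totals. None of the 7 was lower by more than 1 model SD, as 3.13% of all genes were.

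Prenatal DEHP in FVB/N is a comparison within the newly made libraries. All 7 genes had a higher value in the exposed FVB/N males than in the FVB/N controls, with log2 ratios of 0.24 to 0.82 and a median of 0.42, against 0.00 for all genes, while Prm3 turned to -0.08 on the late spermatid scale. None was called higher, as 0.662% of 16471 genes were. Prm1 was at 0.82, from 185 to 328 counts, and Tnp1 at 0.77, from 227 to 387 counts. These were the 2 genes of the 7 that were higher by more than 1 model SD, as 3.76% of all genes were, and neither passed 2. Tnp2 was at 0.50, Hils1 at 0.42, H1fnt at 0.37, Prm2 at 0.35 and Prm3 at 0.24.

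Late spermatid genes had a median log2 ratio of 0.26 in this FVB/N comparison, with 22 of 25 above 0. Epididymal markers also moved with DEHP in FVB/N. Of 14 such genes in the table, 13 were tested and 10 were called higher, with a median log2 ratio of 5.79. Over the 13 genes with a valid estimate in both conditions, the summed counts were 37684 in the FVB/N controls and 91945 in the exposed FVB/N males. Crisp1 had no valid estimate in the FVB/N controls and 219328 counts in the exposed FVB/N males. In the FVB/N controls, 3 of the 14 had 3 counts or fewer, namely Lcn8, Lcn9 and Cst11. Blood markers moved in the same comparison, from a sum of 3198 to 7494 counts, and 2 of 7 tested were called higher, namely the globins Hba-a2 at 2.43 and Hbb-bs at 2.33. Alas2, the enzyme of haem synthesis in red cell precursors, was at 1.88, and Cd74 was at -0.19. The part of both tissues in the values of the protamines was not tested.

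The difference between the log2 ratios to DEHP of both strains was above 0 in all 7 genes, with a median of 0.66 and a range of 0.17 to 1.08, and on the late spermatid scale Prm3 turned to -0.39 and Hils1 to -0.34, as Prm3 did to -0.01 at equal totals. No gene reached 2 log2 units, as 0.997% of 17556 genes did in the same direction. Tnp1, at 0.93 with a model SD of 0.75, was the gene whose difference passed 1 model SD. Prm2 had the highest value, 1.08, with a model SD of 1.30. The difference between strains in the response to DEHP therefore lay within 1 model SD for the other 6 genes.

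The second generation was compared with both F1 conditions of its strain, and in both cases the libraries belong to different sets. The F2 males were lower than the C57BL/6J controls in all 7 genes, with a median log2 ratio of -1.05, against -0.04 for all genes, and 4 of the 7 turned on the late spermatid scale. None was called lower, as 3.61% of 17114 genes were. The lowest were Prm2 at -1.65 and H1fnt at -1.52, and the highest were Hils1 at -0.61 and Prm1 at -0.55. All 7 were lower by more than 1 model SD, as 18.2% of all genes were, and H1fnt, from 276 to 96.0 counts, was the 1 gene past 2. The share of all genes past 2 model SDs is not given here.

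Against the exposed C57BL/6J males, the median of the 7 genes was -0.89, and 5 of the 7 turned on the late spermatid scale. None was called lower, as 3.3% of 17133 genes were. Prm3 was at -1.30 and H1fnt at -1.21, and Prm1 and Tnp2 were both at -0.72. In this comparison 6 of the 7 were lower by more than 1 model SD, as 15.7% of all genes were. The exception was Prm2, from 12610.3 to 6651 counts, at -0.92.

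**Figure D2:**
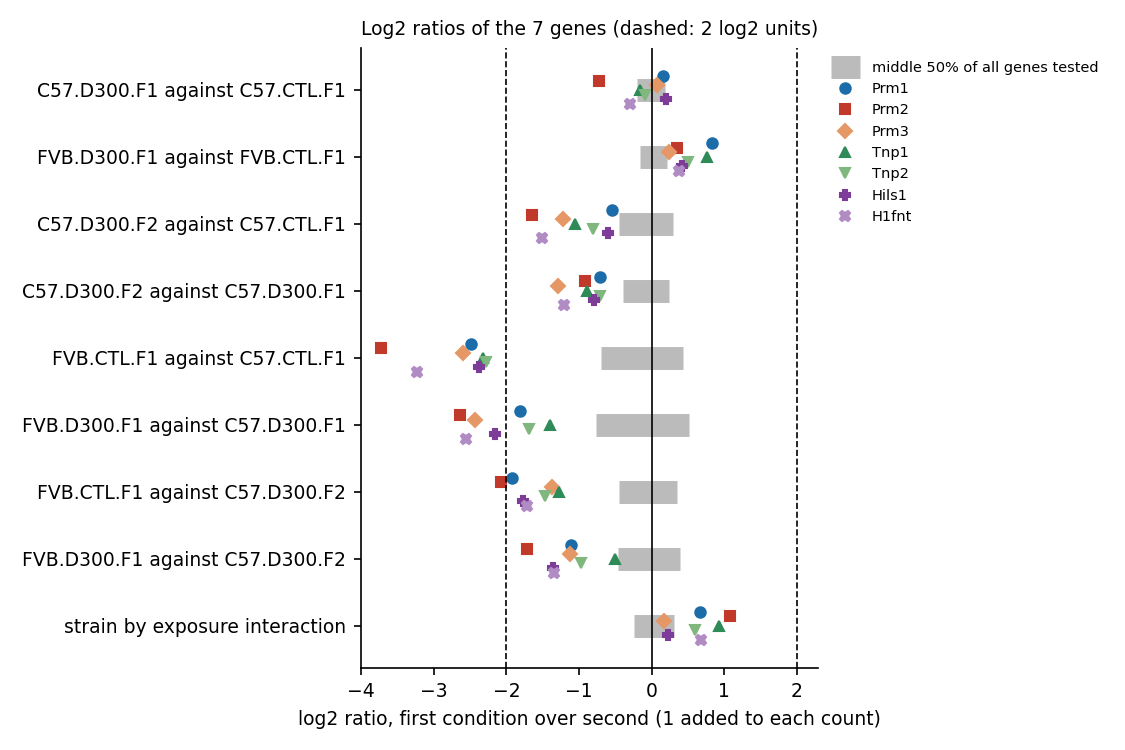
Log2 ratio of each of the 7 genes in the 8 comparisons and in the strain by exposure interaction, with grey bars for the middle 50% of all genes tested and dashed lines at 2 log2 units. The 7 genes lie left of the grey bar in every comparison of FVB/N with C57BL/6J and of C57.D300.F2 with F1, with medians of -2.48 to -0.89 on the deposited scale, while 4 to 6 of the 7 turn sign on the late spermatid scale.

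The strain comparison of control males gave the largest differences. The FVB/N controls were lower than the C57BL/6J controls in all 7 genes on the deposited scale, whereas the sign turned in 5 of the 7 on the scale of late spermatid genes given below. All 7 were called lower, as 8.88% of 17086 genes were. The median log2 ratio of the 7 genes was -2.48, and that of all genes was -0.03. Prm2 was at -3.72, which is 13.2 times as many counts in the C57BL/6J controls. H1fnt was at -3.24, or 9.73 times as many counts, Prm3 at -2.60 and Prm1 at -2.48. Hils1 was at -2.38, Tnp1 at -2.33 and Tnp2 at -2.29, or 4.90 times as many counts.

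All 7 were lower by more than 1 model SD, as 25.3% of all genes were, and 6 passed 2. The share of all genes past 2 model SDs is not given here, so the count of 6 cannot be set against it. Prm2 was the gene that did not pass 2, since the difference of 19319 counts stands beside a model SD of 13346.8. Differences of this size were also not rare among abundant RNAs. Of 1443 genes with at least 1000 counts in the C57BL/6J controls, 145 had a log2 ratio as low as that of Prm2 or lower, itself included. In bulk RNA such as this, fewer cells of a type and less RNA per cell cannot be told apart.

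The comparison of exposed males, which shares no condition with the former, ran in the same direction. The exposed FVB/N males were lower than the exposed C57BL/6J males in all 7 genes, with a median log2 ratio of -2.15, and 4 of the 7 turned on the late spermatid scale. The 4 genes Prm2 at -2.64, H1fnt at -2.56, Prm3 at -2.43 and Hils1 at -2.15 were called lower, as 7.67% of 17377 genes were. Prm1 was at -1.82, Tnp2 at -1.69 and Tnp1 at -1.40. As for the control males, the compared libraries belong to different sets.

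Within the newly made libraries, the strains could be compared through the F2 males, which also differ from the FVB/N controls by lineage and generation. The FVB/N controls were lower in all 7 genes, with a median log2 ratio of -1.72 against 0.00 for all genes, and 5 of the 7 turned on the late spermatid scale. Prm2 was the 1 gene called lower, at -2.07, as 2.5% of 16969 genes were. All 7 were lower by more than 1 model SD, as 17.1% of all genes were. Prm1 was at -1.93, Hils1 at -1.78 and H1fnt at -1.72, and Tnp1 was nearest to 0 at -1.27.

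In the comparison of the exposed FVB/N males with the F2 males, added after the data had been seen, the median was -1.13, and none of the 7 was called lower, as 2.02% of 17122 genes were. Prm2 was at -1.72 and Tnp1 at -0.51. The lower level of these RNAs in FVB/N thus also appeared on the deposited scale within 1 set of libraries, where 6 of the 7 turned on the late spermatid scale and strain, lineage and generation cannot be told apart, at a smaller size than across the sets.

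The balance between members was taken as a ratio of counts within a condition, which does not depend on the scaling between conditions. The ratio of Prm2 to Prm1 was 20.1 ± 13.9 (model SD) in the C57BL/6J controls, 10.9 ± 5.80 in the exposed C57BL/6J males, 9.41 ± 4.35 in the F2 males, 8.57 ± 3.15 in the FVB/N controls and 6.15 ± 2.60 in the exposed FVB/N males. It was highest in the C57BL/6J controls, yet no compared pair of conditions differed by more than the model SD of the difference. Per transcript length the ratio was 15.2 in the C57BL/6J controls and 4.65 in the exposed FVB/N males.

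The ratio of Tnp1 to Prm1 remained between 0.779 in the F2 males and 1.23 in the FVB/N controls, and differed in no compared pair by more than the model SD. The ratio of Tnp2 to Prm2 was lowest in the C57BL/6J controls, at 0.0404 ± 0.0278, and was 0.0627, 0.0722, 0.109 and 0.121 in the exposed C57BL/6J, F2, FVB/N control and exposed FVB/N males. The difference of 0.0683 between the FVB/N controls and the C57BL/6J controls exceeded its model SD of 0.0489. The ratio of Hils1 to H1fnt was 0.436 ± 0.160 in the C57BL/6J controls and 0.821 ± 0.328 in the F2 males, a difference of 0.385 with a model SD of 0.364, and it was 0.616 in the exposed C57BL/6J males, 0.785 in the FVB/N controls and 0.814 in the exposed FVB/N males. Ratios added later, of Tnp2 to Prm1 and of Tnp1 to Tnp2, ranged from 0.679 to 0.931 and from 1.15 to 1.58.

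**Figure D3:**
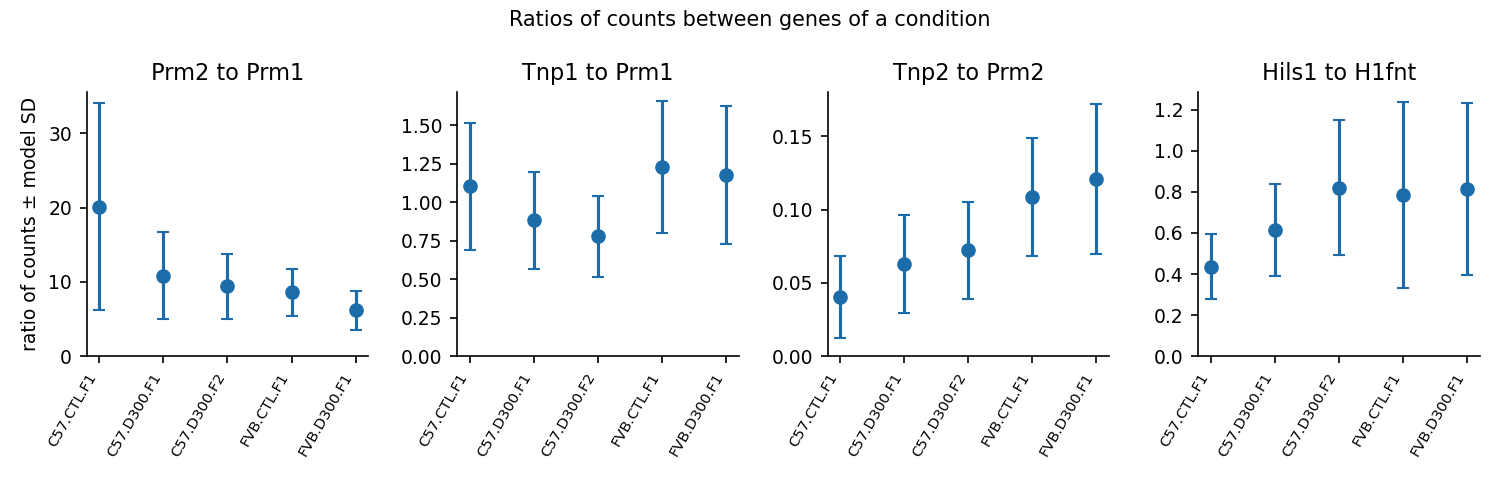
Ratios of counts between pairs of genes in each condition, with bars of 1 model SD. The Prm2 to Prm1 ratio runs from 20.1 in the C57BL/6J controls to 6.15 in FVB.D300.F1 with overlapping bars, and the Tnp1 to Prm1 ratio stays between 0.779 and 1.23.

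Genes of late spermatids that have other roles served as the reference for sperm RNA as such. The list of 26 genes includes Odf1 and Odf2 of the outer dense fibres, Akap4 of the fibrous sheath and Smcp of the mitochondrial capsule, and all 26 had over 3 counts in every condition. Their counts summed to 90719.8 in the C57BL/6J controls, 81189 in the exposed C57BL/6J males, 31649 in the F2 males, 7732 in the FVB/N controls and 8943 in the exposed FVB/N males. The sum of the 7 genes was 26.9%, 19.7%, 27.1%, 28.8% and 34.2% of these sums. These shares follow Prm2, whose values were the least certain. Without Prm2 they were 3.85%, 4.20%, 6.13%, 8.34% and 11.6%, and the lowest share moved from the exposed C57BL/6J males to the C57BL/6J controls. Relative to the summed reference, the other 6 genes together were thus lowest in C57BL/6J F1 males and highest in the exposed FVB/N males. That sum in turn largely follows Smcp and Odf1. They had 35149 and 21227 counts in the C57BL/6J controls, and 1799 and 2589 in the FVB/N controls.

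In the FVB/N controls against the C57BL/6J controls, 23 of the 26 late spermatid genes were called lower, with a median log2 ratio of -3.03, below the -2.48 of the protamines and transition proteins. Spata18 was the lowest at -4.64, Smcp was at -4.29 with 35149 and 1799 counts, and Tekt4 was the highest at -0.60. In the F2 males against the same controls, their median was -1.09, with all 26 below 0 and 0 called. In the exposed C57BL/6J males against the C57BL/6J controls it was -0.16.

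Scaled to the late spermatid genes, the 7 genes no longer had lower values in FVB/N as a group. Their median log2 ratio of the FVB/N controls against the C57BL/6J controls became 0.62, with Tnp2 at 0.82, Tnp1 at 0.78, Hils1 at 0.67, Prm1 at 0.62 and Prm3 at 0.39, and with H1fnt at -0.17 and Prm2 at -0.61. The values of Prm1, Tnp1 and Tnp2 exceeded 1 model SD. The median was 0.14 for the F2 males against the C57BL/6J controls, 0.15 for DEHP in C57BL/6J and 0.09 for DEHP in FVB/N. That scaling moves all genes, whose median log2 ratio in the comparison of the control males became 3.04.

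As a list, the testis histones and histone variants moved less, but the list is mixed. Its most abundant genes hardly differed between the controls, with H3f3b at 1015 counts in C57BL/6J and 1049 in FVB/N, and H2afz at 971 and 933. The 2 genes called lower fell as far as the protamines. In the FVB/N controls against the C57BL/6J controls, 2 of 11 tested were called lower, and the median log2 ratio was -0.62. They were H2afb1, a short spermatid histone variant, at -3.15 with 71.1 and 7.10 counts, and 1700024P04Rik at -3.09. Of the 19 symbols listed, 4 were not analysed here under that symbol, namely H2al1n, H2al2a, H2al3 and H2bl1, and other names of these genes were not searched. The testis linker histone Hist1h1t, at 17.6 and 7.01 counts, was at -1.21.

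Among 25 genes for histone removal and exchange, the median was -0.06 and 1 was called lower. This was Tssk6, a kinase of spermatids needed for histone removal, at -3.68, with 2051, 2004, 1013, 159 and 202 counts in the 5 conditions. Psme4, a proteasome activator that degrades acetylated histones, was at 0.14, and Brdt, the bromodomain protein that binds them, at -1.38.

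Of 14 regulators of transcription in spermatids, 2 were called lower in the same comparison, with log2 ratios from -2.71 to 0.44. Gtf2a1l, a testis form of a general factor, was at -2.71, and Tcfl5, a factor of spermatocytes and spermatids, at -2.45. Crem had 377 and 408 counts and was at 0.11, and in the DEHP comparison of FVB/N it was at -1.18, from 408 to 179 counts, while Prm1 and Tnp1 had higher values. Of 19 genes for storage and translation of the messages, 4 were called lower, with a median of -0.68. They were Tdrd6 at -2.95, Pabpc2 at -2.64, Ybx2, which binds and represses protamine messages, at -2.49 and Piwil1 at -2.14.

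**Figure D4:**
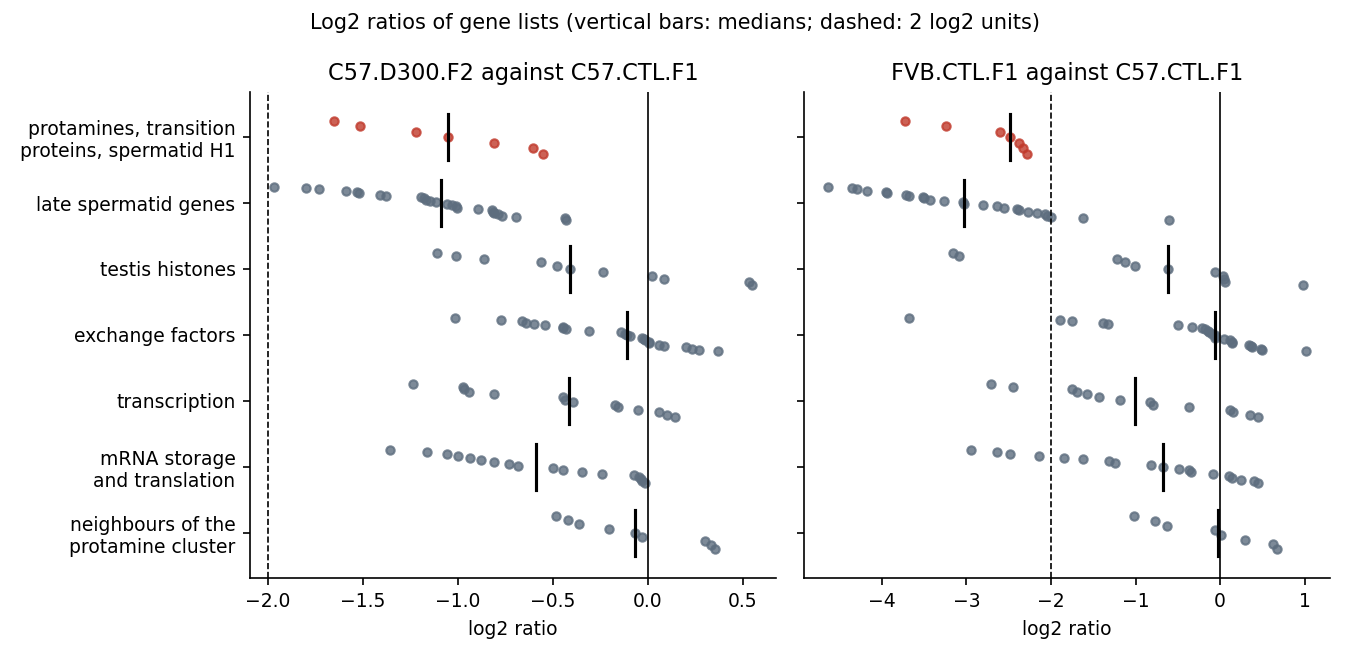
Log2 ratio of each gene of 7 lists in C57.D300.F2 (left) and FVB.CTL.F1 (right), each against C57.CTL.F1, with medians as vertical bars. The protamines and transition proteins have medians of -1.05 and -2.48, the late spermatid genes of -1.09 and -3.03, and the neighbours of the protamine cluster of -0.07 and -0.03.

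Genes next to the protamine cluster are given as a description of the region in bulk RNA. In the FVB/N controls against the C57BL/6J controls, none of 8 neighbours tested was called lower, and their median log2 ratio was -0.03. Socs1, an inhibitor of cytokine signalling whose midpoint lies 12.9 kb from the Prm1 start beyond Tnp2, had 10.8 and 6.60 counts and was at -0.63. Rmi2, of the complex that dissolves crossed DNA strands, on the other side, was at 0.67, and Litaf was the lowest at -1.01. Zc3h7a had no valid estimate in FVB/N. Of the genes tested in this stretch, the 4 called lower were the 4 of the cluster. Tnp1 at -2.33, Hils1 at -2.38 and H1fnt at -3.24, on other chromosomes, were called lower too. The part of chromosome position in these values was not tested. In the exposed males, 1 of 8 neighbours tested was called lower, namely Ciita, the activator of MHC class II genes, at -2.42.

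**Figure D5:**
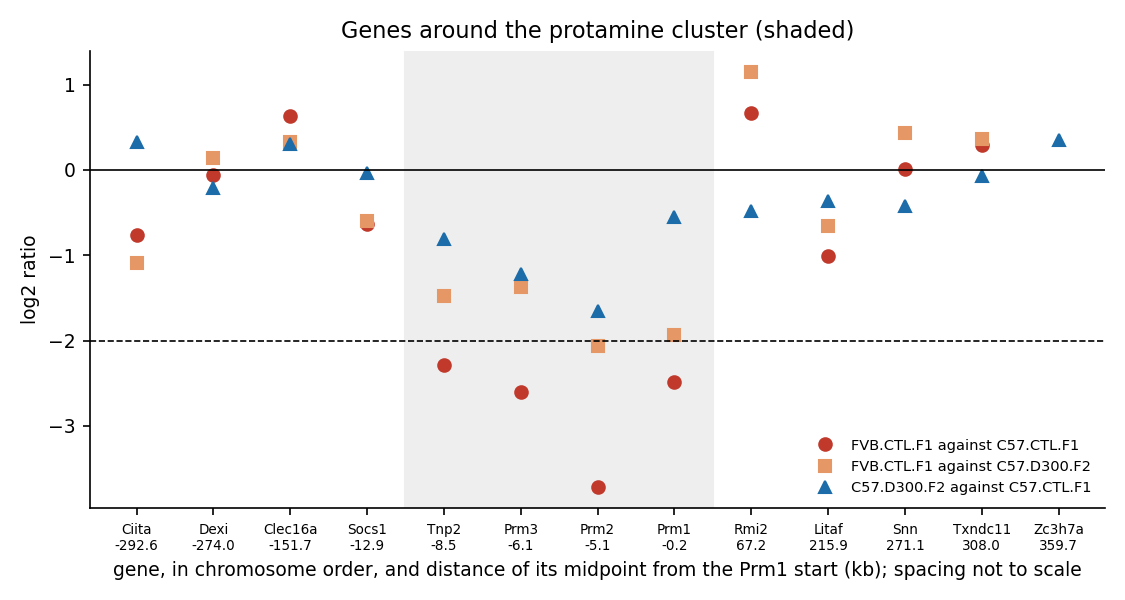
Log2 ratio of genes around the protamine cluster (shaded) in 3 comparisons, in chromosome order, with the distance of each midpoint from the RefSeq start of Prm1 under its name. The 4 genes of the cluster lie between -3.72 and -2.29 in the comparison of the control males, and the 8 neighbours tested between -1.01 and 0.67 (Zc3h7a had no valid estimate in FVB/N).

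The genes whose profile over the 5 conditions was nearest to the median profile of the 7 were sought among 8101 genes with at least 100 counts in every condition. The measure was the root-mean-square distance between centred log2 counts. Adam5, a surface protein of sperm, was nearest at 0.0316 log2 units, with 646, 712, 361, 118 and 151 counts. Rnf138 followed at 0.109, Lrrc57 at 0.113, St6galnac2 at 0.124 and Dbil5 at 0.124. Within the 7, Hils1 was nearest to the median profile at 0.0790 and Prm2 farthest at 0.478.

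Transcripts of other tissues differed between the same conditions. Liver markers, 12 of 12 with over 3 counts in every condition, summed to 226291 counts in the C57BL/6J controls, 190436 in the exposed C57BL/6J males, 5117 in the F2 males, 1184 in the FVB/N controls and 780.1 in the exposed FVB/N males and were thus, like the 7 genes, highest in the re-analysed libraries. Seminal vesicle markers summed to 258368 counts in the C57BL/6J controls and to between 1151 and 2526 in the other 4 conditions, where at most 3 of 9 were at 3 counts or fewer and Spink1 was at 0 in the exposed C57BL/6J males and the exposed FVB/N males. Markers of early germ cells summed to 1586, 1538, 1168, 904 and 897 counts, with Stra8 at 3 counts or fewer in 4 of the 5 conditions. Of these 14 genes, 12 were lower and 2 higher in the FVB/N controls than in the C57BL/6J controls. Ddx4 at -3.66 and Smc1b at -2.07 were called lower in that comparison, whereas Kit was at -0.13, so the sum does not show their fall. Markers of Sertoli and Leydig cells summed to 13284, 13416, 33013, 42110.3 and 42684.6 counts, nearly all of it Clu, which is also an epididymal RNA. Blood markers summed to 8049, 10863, 7189, 3198 and 7494 counts, with Hba-a1 at 3 counts or fewer in all 5 conditions. In the FVB/N controls against the C57BL/6J controls, where the 7 genes were lower, 2 of 8 blood markers tested were called lower, namely Lyz2 of myeloid cells at -2.41 and Cd79a of B cells at -2.48. Markers of smooth muscle and connective tissue summed to between 35796 and 57986 counts. The part of these tissues in the values of the 7 genes was not tested.

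Other genes overlap with a pair of the 7. Tnp1 overlaps 1700027A15Rik on the opposite strand, which had 765, 587, 193, 53.1 and 55.7 counts in the 5 conditions. Reads were mapped with a strand option, but whether Cuffdiff counted by strand is not given in the sources used here, so reads of Tnp1 and of this antisense gene may not be fully separated. Hils1 overlaps Sgca on the opposite strand, which had 4.22 to 15.2 counts.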

How the data were processed

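The sources used were 25 all-RNA-seq libraries in 5 conditions of 5. RNA was extracted with TRIZOL, depleted of ribosomal RNA, fragmented and built into TruSeq small RNA libraries. The authors clipped the RA3 adapter, kept reads of at least 18 bases, mapped them to mm10 with TopHat (strand option fr-secondstrand) and quantified them with Cuffdiff; CASAVA 1.8.2 made the base calls, per the submitters' processing notes. The deposited values are a signal, 1 estimated count per gene and condition, scaled between libraries and not divided by length, with a second set of deposited columns for the model's variance (10 columns used). Cuffdiff options and the annotation release are not given in the sources used here. Genes that failed in Cuffdiff (35 to 50 per condition) were treated as missing. Condition totals ran from 6921690 to 8602900 counts.

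Log2 ratios used 1 added count, a minimum of 10 counts in 1 compared condition and a threshold of 2 log2 units. The model SD of a ratio was taken by the delta method. With 1 value per condition there were no tests and no SD between libraries, and limits cover counting error only. The 7 genes and all lists were chosen with earlier results of these data known. Named genes are the 7, the 5 nearest profiles and, from the lists, genes past the threshold or, where a list had none, its highest and lowest. Not every list gene past the threshold is named, so a gene left unnamed may have been called. Other genes named (Tekt4, Smcp, Hist1h1t, H3f3b, H2afz, Psme4, Brdt, Crem, Socs1, Clu, Stra8, Ddx4, Smc1b, Kit, Spink1 and the epididymal genes) were chosen after their values were seen. Coordinates and lengths are those of GENCODE M21, promoters those of RefSeq. Alternatives were other scalings, pseudocounts, minimums and thresholds.

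On simulated data of 16459 genes for C57.D300.F1 against C57.CTL.F1, with 200 changed by 3 log2 units, 198 were recovered, 0 in the wrong direction, and 2 unchanged genes were called. The spread set in the simulation is not given here, so this recovery cannot be carried over to calls at the model SDs reported above. Scripts ran in Python 3.11.15 with matplotlib 3.10.9, scipy 1.17.1, pandas 2.3.3 and numpy 2.4.6. Protein sequences, DNA methylation and sperm parameters were not analysed here.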

Additional observations from a re-analysis of the deposited data

How the results depend on the processing

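Of 336 log2 ratios of single genes under another scaling or pseudocount, 301 moved by less than 1 model SD. The 280 that did not use the late spermatid scaling were all among them. With factors from the late spermatid list, the called ratios of FVB.CTL.F1 against C57.CTL.F1 changed sign to 0.62 for Prm1, 0.39 for Prm3, 0.78 for Tnp1, 0.82 for Tnp2 and 0.67 for Hils1, with a median of 0.62 and 0 genes called, and in FVB.D300.F1 against C57.D300.F1 Hils1 became 0.32, with a median of 0.32 and 0 called. The median became 0.14 for the F2 males against the C57BL/6J controls, 0.050 against C57.D300.F1, and 0.16 in FVB.CTL.F1 against C57.D300.F2 with 0 called. By construction this scaling sets the median of that list near 0. At 1 log2 unit, 4 genes were lower in the F2 males against the C57BL/6J controls, 2 against C57.D300.F1, 7 in FVB.D300.F1 against C57.D300.F1, 7 in FVB.CTL.F1 against C57.D300.F2, and 1 was higher in the interaction. The share of all genes past 1 log2 unit is not given here, so these counts cannot be set against it. A pseudocount of 10 left 2 called in FVB.D300.F1 against C57.D300.F1, and equal totals gave 2 in FVB.CTL.F1 against C57.D300.F2. Beyond 2 model SDs lay 0 genes for DEHP in FVB/N, 1 for the F2 males against the C57BL/6J controls and 1 against C57.D300.F1. For this bar too, the share of all genes is not given here. Of the 5 nearest profiles, 1 was kept at a minimum of 1000 counts. Ratios between genes moved by less than 1 model SD under both pseudocounts, and shares of a total do not depend on the scaling. Counts over all genes moved by more than 1.5 times with a threshold of 1 log2 unit in all 8 comparisons, with a minimum of 100 counts in 6, with a pseudocount of 10 in 5 and with the late spermatid factors in 4.

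No paired analysis was possible because the table holds 1 pooled value per condition, and for the same reason leaving out a library was not run. Prm3, Hils1 and H1fnt had 10.2 to 37.0 counts in FVB/N, where depth limits their ratios most.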
